A study of Mus musculus with 6 samples.

Results

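T cells that carried RNA of at least 2 of the genes Eomes, Sox4, Myb, Cldn10 and Tubb2b were followed across 6 single-cell RNA libraries. Of these libraries 3 came from vascular tissue and 3 from spleen. A cell was a member when it had at least 300 genes, at most 10% mitochondrial UMIs (unique molecular identifiers, the molecules counted), at least 1 UMI of Cd3e, no UMI of Foxp3, Klrb1c, Zbtb16 or Gzmk, and at least 1 UMI of 2 or more of the 5 genes Cldn10, Myb, Eomes, Sox4 and Tubb2b. The members were therefore selected on the measured UMIs of these 10 genes. The rule found 626 such cells, called gate cells here, among 31410 Cd3e-positive cells without the 4 excluded genes, 41303 cells that passed the quality limits and 41315 barcodes in all. Vascular tissue gave 33, 52 and 59 gate cells in libraries 1, 2 and 3, and spleen gave 62, 187 and 233. They were set against all remaining cells of the 31410, those with UMIs of 0 or 1 of the 5 genes, called other T cells (14190 vascular and 16594 splenic).

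Per the labels, every library came from C57/B6 mice given elastase (labelled PPE) to induce an abdominal aortic aneurysm at 8 to 12 weeks of age, and tissue was taken 14 days after surgery. The labels call the cells CD4+ T cells, sorted by flow cytometry per the series' design text. The aorta was digested with enzymes and the spleen was ground, so tissue and digestion cannot be told apart, and libraries of untreated mice were not analysed here. Whether replicates came from separate animals is not stated in the labels, so the p-values reflect how far these 6 libraries vary, a variation that may be technical.

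Eomes is a T-box transcription factor of cytotoxic and memory lymphocytes and natural killer cells. Myb and Sox4 are transcription factors used by lymphocyte progenitors and developing thymocytes, and Myb is also known to sustain long-lived T cells. Cldn10 encodes a claudin, a protein of tight junctions in epithelia, and Tubb2b encodes a beta-tubulin best known from neurons. Of the 4 genes that barred a cell, Foxp3 is the factor of regulatory T cells, Zbtb16 and Klrb1c mark natural killer T and natural killer cells, and Gzmk encodes a granzyme of effector memory T cells.

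The promoter windows of Cldn10 and Myb are shown because these genes formed the most frequent pair in gate cells and because their windows hold letters of the words searched. RefSeq sequence of build GRCm38.p6 from 250 bases before to 50 after the start of a gene was searched on both strands for the T-box core word GGTGTG, the MYB word AACGG and the SOX word ACAAAG, none of which overlaps another here. Capitals mark the words found.
Cldn10, first window, chr14:118787621-118787920, plus strand: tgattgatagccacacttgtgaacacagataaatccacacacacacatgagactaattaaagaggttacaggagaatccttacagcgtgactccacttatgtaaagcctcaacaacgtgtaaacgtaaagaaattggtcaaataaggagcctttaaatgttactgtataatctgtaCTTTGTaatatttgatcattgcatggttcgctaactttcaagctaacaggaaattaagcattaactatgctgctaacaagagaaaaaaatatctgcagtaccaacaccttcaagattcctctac
Myb, chr10:21160935-21161234, minus strand: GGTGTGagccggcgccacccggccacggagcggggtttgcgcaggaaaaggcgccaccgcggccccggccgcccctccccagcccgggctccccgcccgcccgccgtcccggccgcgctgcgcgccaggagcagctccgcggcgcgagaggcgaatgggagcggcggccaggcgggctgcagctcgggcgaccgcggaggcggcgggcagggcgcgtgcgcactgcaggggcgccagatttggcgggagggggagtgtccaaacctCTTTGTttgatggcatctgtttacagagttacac
The capitals in Cldn10 are the SOX word on the reverse strand, and Myb holds the T-box word at the start of the window and the SOX word on the reverse strand near its end. Windows of Eomes, Sox4 and the second start of Cldn10 held none of the 3 words. Among 27025 promoters of the same length, 18.96% held the T-box word, 17.7% the MYB word and 18.7% the SOX word, so a match is common and describes letters alone.

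The matrices held 14836442 to 55483411 UMIs and 2312 to 9581 barcodes per library. Gate cells were deeper than other T cells in every library. Their median UMI counts were 8727, 9237.5 and 5098 against 4253.5, 4685 and 4889 in vascular libraries, and 7628.5, 6740 and 6361 against 5723.5, 5209 and 5026 in spleen. The rule needs molecules of 2 genes, and doublet calls were also more frequent in gate cells (18.2%, 19.2% and 16.9% against 6.03%, 3.11% and 4.42% of other T cells in vascular libraries, and 3.23%, 14.97% and 12.9% against 1.77%, 7.02% and 7.09% in spleen). Pairs of libraries shared 18 to 136 barcodes, and in 2 of the 15 pairs 1 shared barcode was a gate cell in both. Results are therefore also given with doublets, cycling cells and cells carrying RNA of other lineages left out together (106 vascular and 373 splenic gate cells remained, called the restricted cells), an alternative chosen after seeing the data.

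The gate cells kept T cell RNA at a lower level than their neighbours. The summed level of 10 measured T cell identity genes was 4003, 3619 and 4175 CPM (counts per 1000000 UMIs of the cells summed) in vascular gate cells against 6262, 5963 and 5859 in other vascular T cells, and 4217, 4713 and 4930 in splenic gate cells against 4906, 5916 and 6188. Thy1, a surface glycoprotein of T cells, had 434, 297 and 384 CPM against 1017, 965 and 939 CPM in vascular tissue and 331, 459 and 448 CPM against 582, 826 and 848 CPM in spleen. Cd4, the co-receptor used for the sort, had 126, 175 and 173 CPM against 238, 229 and 220 CPM in vascular tissue, and 110, 108 and 110 CPM against 181, 182 and 190 CPM in spleen. Both genes were lower in gate cells of every library without overlap. With the restricted cells the median log2 difference of the 10 genes was -0.27 in vascular tissue, against -0.11 over all genes tested. In spleen it was -0.003 against -0.009, so the list as a whole was not lower there.

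The 5 genes that made the rule describe the members and support nothing. A UMI was found for Myb in 75.7% of vascular and 71.6% of splenic gate cells, for Sox4 in 51.4% and 45.6%, for Tubb2b in 41.0% and 35.9%, for Cldn10 in 33.3% and 49.2%, and for Eomes in 27.8% and 47.7%. Myb was thus the most often detected, while Eomes and Cldn10 were found in a larger share of splenic than of vascular members. Among other T cells, where at most 1 of the 5 genes could be present, Eomes was found in 0.388% of vascular and 0.633% of splenic cells and Cldn10 in 0.648% and 2.74%. Exactly 2 of the genes were found in 113 vascular and 321 splenic gate cells, and 3 or more in 31 and 161. All 5 were found in 25 cells, 3 vascular and 22 splenic. Just outside the rule stood 1032 vascular and 1909 splenic cells with a single gene.

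Cldn10 with Myb was the most frequent pair among cells with exactly 2 genes (91 cells), followed by Myb with Eomes (79), Myb with Sox4 (63), Myb with Tubb2b (62), Sox4 with Tubb2b (43) and Cldn10 with Sox4 (31). Of 335 splenic eligible cells with Eomes, 47.2% also had Myb, against 4.68% of the cells without Eomes, and 30.5% had Cldn10, against 3.52%. Of 95 vascular cells with Eomes, 35.8% had Myb, against 3.96%, and 11.6% had Cldn10, against 0.906%. The pairs were not alike: 22.6% of cells with Myb and Tubb2b alone were cycling, against 1.10% of those with Cldn10 and Myb alone.

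Cells of other types among the sorted barcodes show which of the 5 genes are not specific to T cells. Cd3e-negative cells with plasmacytoid dendritic markers, 1111 in vascular tissue with a median of 8193 UMIs, had Tubb2b in 39.2%, Sox4 in 10.7% and Myb in 10.7%. In the 150 such cells of spleen, with a median of 7403 UMIs, the shares were 45.3%, 14.7% and 14.7%. Eomes and Cldn10 were found in 0 of the 1111 cells, which allows a share of up to 0.270%, and in 0 of the 150 cells, which allows up to 2%. In 198 splenic cells with B cell markers, with a median of 3915 UMIs, Eomes was found in 0 cells, which allows up to 1.52%. Cldn10 was found in 9 of these 198 cells (4.55%) and Tubb2b in 10 (5.05%). Among all eligible splenic T cells, Cldn10 was found in 4.135%, 3.94% and 4.14% by library, and Tubb2b in 4.74%, 2.87% and 3.17%. Other T cells are no fair comparison here, since the rule limits how many of the 5 genes they can hold. Whether these shares differ was not tested.

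Gate cells were a smaller share of eligible T cells in vascular tissue than in spleen. They made up 0.554%, 1.45% and 1.23% of eligible cells in the vascular libraries (exact 95% binomial intervals 0.382 to 0.778, 1.08 to 1.89 and 0.939 to 1.59) and 3.42%, 2.504% and 2.99% in spleen (2.63 to 4.36, 2.16 to 2.88 and 2.62 to 3.39). The intervals cover counting error alone. Every vascular library was below every splenic one, and the means were 1.08% ± 0.466 and 2.97% ± 0.457 (SD, n = 3 libraries each), a difference of -1.89 percentage points. A two-sided exact permutation test gave p = 0.1, the smallest value that 3 libraries against 3 allow, so the design cannot pass 0.05.

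The order of the tissues was the same at equal depth. With every cell thinned to 2000 UMIs before the rule was applied, the shares were 0.0692%, 0.385% and 0.344% in vascular libraries and 1.01%, 0.646% and 1.02% in spleen, again without overlap. Shallower cells were left out of this comparison, 84 in splenic library 1 and 20 in vascular library 2, none of them gate cells. Without doublets, cycling cells and cells with RNA of other lineages, the difference was -1.73 percentage points. With Eomes required it was -1.03, from 0.299% ± 0.200 in vascular tissue and 1.32% ± 0.181 in spleen.

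**Figure D1:**
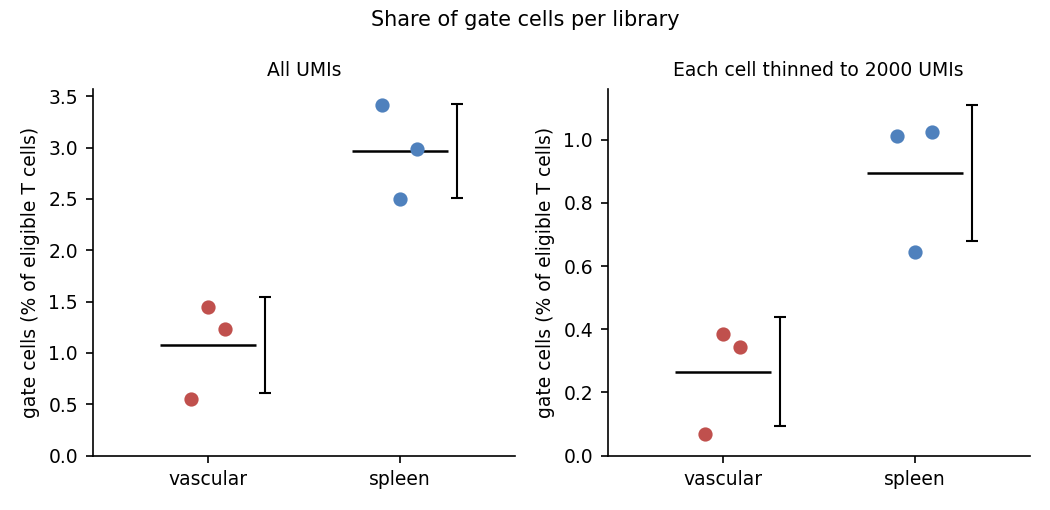
Share of eligible T cells (percent, vertical axis) that met the rule in each library, vascular left of spleen, as deposited and with each cell thinned to 2000 UMIs; points are libraries, horizontal lines the mean and error bars the SD over 3 libraries. Vascular libraries lie between 0.554% and 1.45%, all below the splenic ones, which lie between 2.504% and 3.42%.

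Gate cells lay near each other in the rest of the transcriptome in both tissues. The 15 nearest neighbours of each cell were found in 30 principal components computed per library without the 10 genes of the rule. Gate cells made up 5.86%, 10.1% and 9.83% of the neighbours of vascular gate cells, against 0.399%, 1.04% and 0.753% of the neighbours of other vascular T cells. In spleen they made up 24.1%, 25.5% and 32.3%, against 2.64%, 1.48% and 1.55%. Set against the share of gate cells in the same library, the share among neighbours of gate cells was 10.6, 6.996 and 7.98 times as high in vascular libraries and 7.05, 10.2 and 10.8 times as high in splenic ones, which overlap. The share was higher where more of the genes were detected. In splenic libraries 1, 2 and 3 it was 32.2%, 47.3% and 47.5% around cells with 3 or more of the genes, 19.3%, 16.1% and 24.0% around cells with exactly 2, 6.19%, 4.62% and 5.36% around cells with 1, and 1.97%, 1.11% and 1.049% around cells with none. In vascular tissue the same 4 kinds of cell had 11.4%, 14.8% and 18.2%, then 4.36%, 9.15% and 6.97%, then 1.62%, 3.98% and 2.52%, and last 0.330%, 0.785% and 0.575%. Most neighbours of a gate cell were therefore not gate cells in either tissue. No test was made. Doublets, cycling cells and cells with RNA of other lineages were kept here, and cells were not matched on UMI total. Gate cells were deeper and held larger shares of doublet calls and of cells with RNA of other lineages in every library. The part of these in the shares was not tested. The rule also came from groupings of these same cells, so the shares are descriptions alone.

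**Figure D2:**
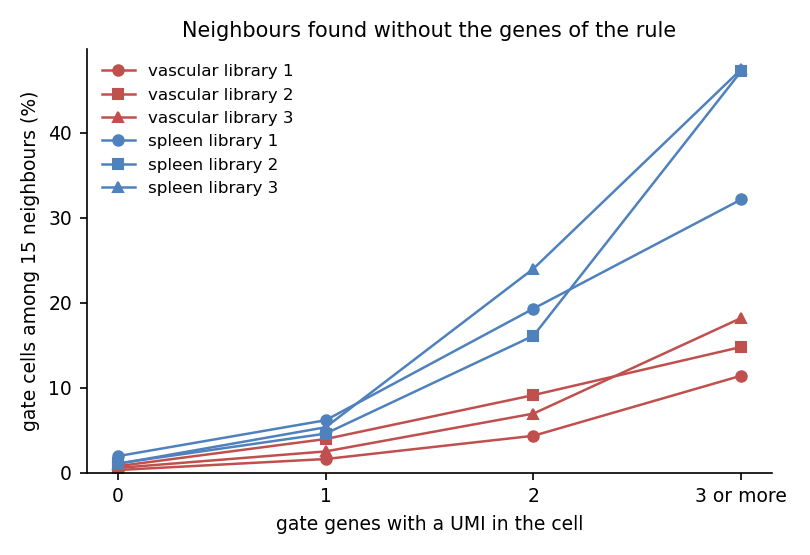
Percent of gate cells among the 15 nearest neighbours (vertical axis) of cells with 0, 1, 2 or 3 or more of the 5 genes (horizontal axis), 1 line per library, red for vascular tissue and blue for spleen. The share is higher with more genes in all 6 libraries, and at 3 or more it reaches 18.2% at most in vascular tissue and 47.5% at most in spleen, where gate cells are also a larger share of all T cells. Doublets were kept and cells were not matched on UMI total.

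Levels of all other genes were compared between gate cells and other T cells of the same libraries. In vascular tissue 974 of 11089 genes tested (8.78%) passed an adjusted p of 0.05 (edgeR quasi-likelihood test on UMI sums with the library as a block, Benjamini-Hochberg adjustment), 422 higher (3.81%) and 552 lower (4.98%) in gate cells. In spleen 1995 of 10355 genes (19.3%) passed, 993 higher (9.59%) and 1002 lower (9.68%). The rule came from groupings of these same cells, so these calls describe the gate cells and are not independent evidence that they form a type. With the restricted cells the count was 619 of about 10480 genes in vascular tissue, 170 higher and 449 lower. In spleen it was 1271 of 9893 genes, 583 higher and 688 lower. With other T cells of like UMI total as the comparison the counts were 188 in vascular tissue and 772 in spleen. Without library 2 the splenic count was 899, and without library 3 it was 1158. The vascular count was 667 without library 1, 552 without library 2 and 638 without library 3.

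Itm2a, which encodes a membrane protein of thymocytes undergoing positive selection, was higher in gate cells of both tissues. Vascular gate cells had 80.7, 148 and 228 CPM, against 25.4, 39.3 and 41.0 CPM in other vascular T cells, and splenic gate cells had 263, 304 and 258 CPM, against 64.6, 61.7 and 67.8 CPM. Gate cells were above other T cells in all 6 libraries without overlap within a tissue. The log2 difference was 2.09 ± 0.17 in vascular tissue (SE, adjusted p = 2.66e-27) and 2.18 ± 0.08 in spleen (adjusted p = 7.38e-15). The test of whether these differences were unequal gave -0.06 ± 0.16 (adjusted p = 0.928). Itm2a had a UMI in 72 of 144 vascular and 264 of 482 splenic gate cells.

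Pou2af1, a co-activator of octamer factors best known from B cells, had 12.0, 22.1 and 18.4 CPM in vascular gate cells against 2.203, 4.04 and 4.40 CPM in other vascular T cells. In spleen it had 43.6, 54.8 and 53.9 CPM against 5.24, 8.14 and 6.65 CPM. All gate values lay above those of the other T cells, by 2.32 ± 0.52 (log2, adjusted p = 0.000327) and 3.01 ± 0.17 (adjusted p = 1.41e-11). The vascular call rested on 18 cells and was lost against T cells of like UMI total (2.42, adjusted p = 0.0834). Both calls held with the restricted cells. Bcl6, the repressor that drives follicular helper T cells, was 1.72 ± 0.33 higher in splenic gate cells (adjusted p = 0.000487), with 9.68, 9.13 and 9.71 CPM against 3.74, 2.60 and 3.18 CPM. In vascular tissue it had 17.9, 14.0 and 11.5 CPM against 9.91, 9.23 and 9.39 CPM, which did not pass the test (adjusted p = 0.543).

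Tnfrsf9, the costimulatory receptor 4-1BB, was high in splenic gate cells and not in vascular ones. It had 26.9, 54.1 and 36.8 CPM in vascular gate cells against 54.6, 36.8 and 41.6 CPM in other vascular T cells, which overlap. Splenic gate cells had 42.0, 142 and 111 CPM against 16.2, 19.95 and 23.2 CPM, without overlap, a log2 difference of 2.46 ± 0.16 (adjusted p = 7.72e-11). The difference between the tissues in this contrast was -2.52 ± 0.28 (log2, vascular minus spleen, adjusted p = 5.35e-08). It did not pass against T cells of like UMI total (-2.23, adjusted p = 0.0759). Eomes, a gene of the rule, was found in 27.8% of vascular and 47.7% of splenic gate cells. Vascular gate cells with Eomes had 78.6, 169.6 and 51.0 CPM of Tnfrsf9, on 4, 15 and 8 UMIs. Those without it had 18.45, 30.7 and 31.55 CPM. The part of the unlike Eomes shares in the tissue difference was not tested.

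For other genes too the contrast between gate cells and other T cells differed between the tissues. Unlike Tnfrsf9, Nr4a2 and Ctla2a were not at a lower level in vascular gate cells than in splenic ones. Other T cells had more of both genes in vascular tissue than in spleen. Nr4a2, an orphan nuclear receptor induced by antigen receptor signals, had 150, 84.2 and 166 CPM in vascular gate cells against 249.1, 129 and 122 CPM in other vascular T cells, and 88.8, 62.7 and 54.4 CPM in splenic gate cells against 26.1, 16.6 and 14.9 CPM. The splenic groups did not overlap (1.95 ± 0.12, adjusted p = 7.72e-11), and the test of the difference gave -2.21 ± 0.20 (adjusted p = 6.07e-10). Ctla2a, which encodes a cysteine protease inhibitor and has the close copy Ctla2b, had 170, 130 and 104 CPM in vascular gate cells against 315, 251 and 175 CPM, and 98.4, 54.2 and 57.8 CPM in splenic gate cells against 11.6, 16.7 and 17.1 CPM. It was lower in vascular gate cells (-0.85 ± 0.14, adjusted p = 6.7e-08) and higher in splenic ones (2.13 ± 0.18, adjusted p = 4.35e-09). Against vascular T cells of like UMI total the lower level did not pass (-0.51, adjusted p = 0.167). Il10ra, a chain of the interleukin-10 receptor, was 2.05 ± 0.13 higher in splenic gate cells (adjusted p = 5.44e-11), and the test of the difference between tissues gave -1.93 ± 0.26 (adjusted p = 1.33e-06).

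**Figure D3:**
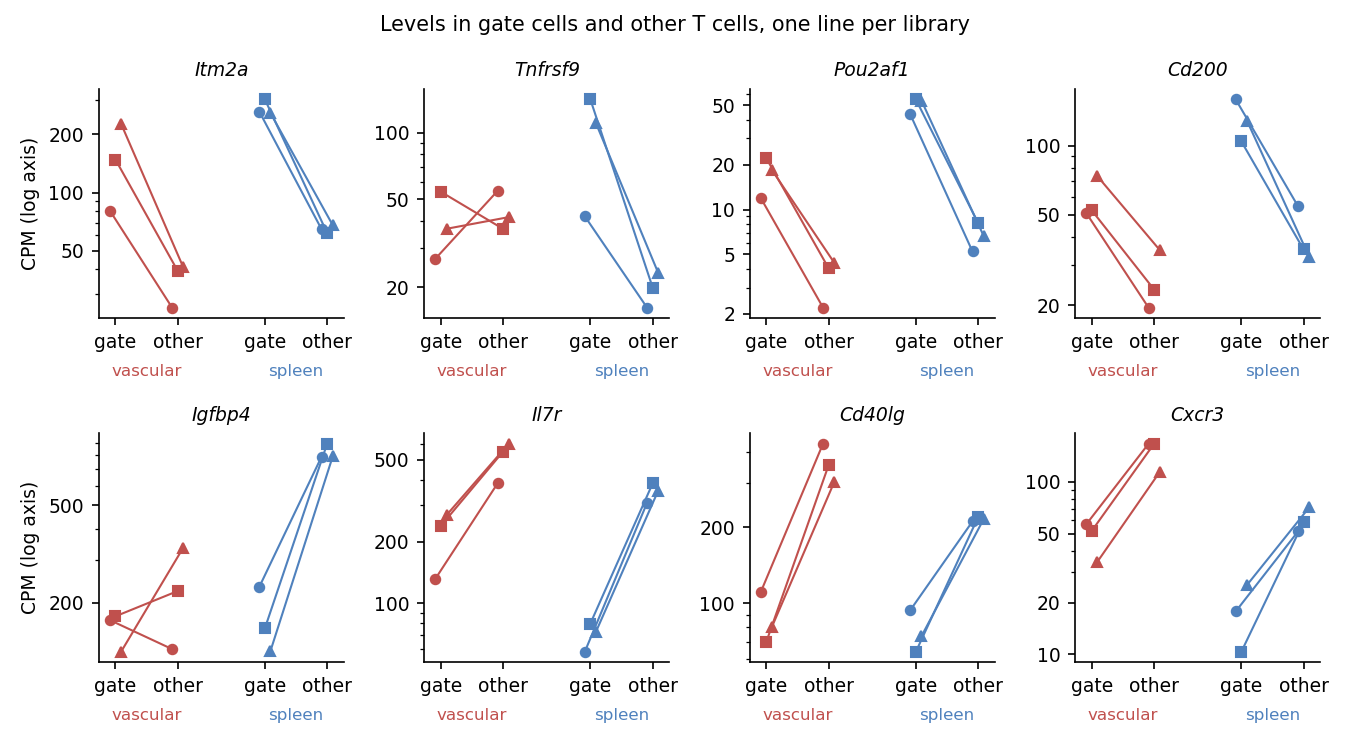
Level of selected genes (CPM, log axis) in gate cells and in other T cells of each library, gate cells left of other T cells and vascular left of spleen; each line joins the 2 values of 1 library. Itm2a and Pou2af1 lie higher in gate cells of both tissues, whereas Tnfrsf9, over all gate cells with and without Eomes, does so in spleen alone.

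Inhibitory receptors and the factor Tox were mixed. Tox, which supports the persistence of chronically stimulated T cells and thymic CD4 development, had 77.7, 142 and 122 CPM in vascular gate cells against 59.4, 67.8 and 74.8 CPM, and 118, 122 and 147 CPM in splenic gate cells against 76.8, 81.3 and 80.6 CPM. It passed in both tissues (0.78 ± 0.16, adjusted p = 6.87e-05, and 0.81 ± 0.09, adjusted p = 2.65e-07). With Eomes required, 40 vascular gate cells remained and Tox no longer passed there (0.87, adjusted p = 0.143). Cd200, the ligand of an inhibitory receptor of myeloid cells, had 50.8, 52.1 and 73.6 CPM against 19.6, 23.5 and 35.0 CPM in vascular tissue and 160, 105 and 129 CPM against 54.4, 35.2 and 32.7 CPM in spleen. It was higher by 1.195 ± 0.22 and 1.82 ± 0.10, but against vascular T cells of like UMI total it did not pass (0.34, adjusted p = 0.512). Lag3, an inhibitory receptor for MHC class II, had 173, 104 and 73.6 CPM against 31.6, 27.4 and 27.9 CPM in vascular tissue, and 46.8, 30.5 and 51.0 CPM against 22.2, 19.7 and 22.6 CPM in spleen. Lag3 is also a gene of plasmacytoid dendritic cells, and 60.7% of the vascular and 60.0% of the splenic cells with their markers had a UMI of it at 2000 UMIs. Lag3 was still higher with the restricted cells, by 2.19 ± 0.29 and 1.35 ± 0.18. Of the 13 listed inhibitory genes, 4 of 13 tested were higher and 4 lower in vascular gate cells, and 3 of 11 were higher and 2 lower in splenic ones. Pdcd1, which encodes PD-1, was among the lower ones in vascular tissue (-1.31 ± 0.19).

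Genes of developing T cells were higher in part. Cd24a, a surface glycoprotein of immature thymocytes and B cells, had 47.8, 24.1 and 52.9 CPM in vascular gate cells against 3.34, 3.55 and 6.51 CPM, and 21.0, 55.4 and 51.4 CPM in splenic gate cells against 4.77, 6.79 and 4.94 CPM. The differences were 3.22 ± 0.39 and 3.11 ± 0.22, and 4.44 ± 0.62 and 4.37 ± 0.26 with the restricted cells. Ikzf2, the factor Helios, was 0.78 ± 0.20 higher in vascular and 0.77 ± 0.12 higher in splenic gate cells, and the vascular call was lost against T cells of like UMI total (0.59, adjusted p = 0.351). Of the listed genes of immature T cells, 8 of 14 tested were higher and 1 lower in vascular gate cells, and 5 of 13 were higher and 1 lower in splenic ones. Dntt, the polymerase that adds bases at receptor joints, Ccr9 and Bcl11a were among the 8, and all 3 are also known from plasmacytoid dendritic cells. Among the restricted cells 3 were higher and 1 lower in vascular tissue, and 4 of 10 were higher and 1 lower in spleen. Of 14 agonist selection genes 5 were higher and 5 lower in vascular gate cells, and 4 were higher and 1 lower in splenic ones, the 4 being Itm2a, Ikzf2, the factor gene Egr2 (1.01 ± 0.22) and the death gene Bcl2l11 (0.66).

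Eomes is known for a cytotoxic programme, and most genes of that list were lower where they passed. The rule barred cells with Gzmk or Klrb1c from gate cells and other T cells alike. Among T cells with 2 or more of the 5 genes, 34 vascular and 42 splenic cells had a UMI of Gzmk and were left out. Eomes was found in 27.8% of vascular and 47.7% of splenic gate cells, so these counts do not describe cells with Eomes alone. In vascular gate cells 4 of 19 tested were higher and 11 lower, with a median of -1.74 (log2) against -0.06 over all genes tested, and in splenic ones 2 of 19 were higher and 9 lower (median -1.53 against -0.02). Crtam, an adhesion receptor that marks cytotoxic CD4 T cells, was an exception, with 0, 10.03 and 23 CPM in vascular gate cells against 1.92, 1.86 and 2.46 CPM, and 37.1, 20.1 and 30.6 CPM in splenic gate cells against 4.30, 3.30 and 4.32 CPM. The vascular groups overlap, and the difference there (2.39 ± 0.67, adjusted p = 0.00758) rested on 15 UMIs in 11 cells. In spleen it was 2.91 ± 0.25 (adjusted p = 8.01e-09), with a UMI in 57 cells. Gzmb, which encodes granzyme B, had 8.97, 14.0 and 4.60 CPM in vascular gate cells against 108, 52.5 and 32.3 CPM. In splenic gate cells it had 3 UMIs, 0.0747 times the level of other splenic T cells (exact interval 0.0154 to 0.219, counting error alone). Ccl5, a chemokine of cytotoxic and memory cells, had 401, 399 and 75.9 CPM against 1558, 1217 and 599 CPM in vascular tissue and 35.5, 3.65 and 116 CPM against 321, 260 and 276 CPM in spleen, where 1 cell held 68.5% of the gate cells' UMIs.

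Effector cytokines and receptors were low in gate cells. Ifng, the cytokine interferon gamma, had 65.8, 22.1 and 2.30 CPM in vascular gate cells against 315, 262 and 158 CPM (-3.17 ± 0.20, adjusted p = 1.41e-41), and 0, 0 and 13.6 CPM in splenic ones against 30.2, 25.8 and 25.7 CPM. Cxcr6, a chemokine receptor of tissue-resident cells, had 95.7, 68.2 and 13.8 CPM against 431, 386 and 247 CPM in vascular tissue and 0, 1.83 and 4.85 CPM against 15.8, 20.4 and 33.8 CPM in spleen. No vascular library overlapped for either gene, and vascular library 3 held the lowest level of both. Il17a, the cytokine of Th17 cells, had 0 UMIs in vascular gate cells and 11467 in other vascular T cells, and against the limit of 3 counts over the group it was at least 62.2-fold lower. Of 14 listed Th1, Th2 and Th17 genes, 0 were higher and 10 lower in vascular gate cells, and of 10 tested in spleen 0 were higher and 5 lower.

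Cd40lg, the ligand through which helper T cells license B cells and macrophages, had 111, 70.2 and 80.5 CPM in vascular gate cells against 431, 354 and 303 CPM, and 93.6, 63.9 and 73.8 CPM in splenic gate cells against 211, 220 and 216 CPM. It was lower by -2.06 ± 0.14 (log2, adjusted p = 2.17e-34) and -1.46 ± 0.09 (adjusted p = 5.44e-11). Il7r, the receptor chain for the survival cytokine interleukin-7, had 132, 239 and 269 CPM against 384, 549 and 600 CPM in vascular tissue and 58.1, 79.8 and 72.8 CPM against 309, 384 and 354 CPM in spleen. It was lower in both (-1.26 ± 0.12 and -2.20 ± 0.08), more so in spleen (difference 0.96 ± 0.14, adjusted p = 1.06e-05). Cxcr3, a receptor of Th1 and memory cells, had 56.8, 52.1 and 34.5 CPM against 167, 167 and 114 CPM in vascular tissue and 17.8, 10.4 and 25.2 CPM against 51.6, 58.7 and 71.2 CPM in spleen. For these 3 genes the groups did not overlap in either tissue. Of 19 memory phenotype genes 0 were higher and 16 lower in vascular gate cells, and 2 were higher and 11 lower in splenic ones, with S100a4 and Il18r1 among the lower ones in both tissues.

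Set against other T cells, genes of naive and recirculating T cells split by tissue. Ccr7, the receptor that guides T cells into lymphoid tissue, had 1196, 928 and 1021 CPM in vascular gate cells against 259, 451 and 452 CPM, and 576, 545 and 381 CPM in splenic gate cells against 578, 620 and 601 CPM. It was 1.49 ± 0.10 higher in the vascular cells (adjusted p = 2.57e-35) and -0.22 ± 0.07 in the splenic ones (adjusted p = 0.0406), a call that was lost with the restricted cells (-0.03, adjusted p = 0.821). The difference between the tissues was 1.69 ± 0.16 (adjusted p = 1.95e-09).

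Igfbp4, which encodes a binding protein of insulin-like growth factors and is abundant in naive T cells, was low in splenic gate cells, as Il7r was. It had 170, 177 and 127 CPM in vascular gate cells against 130, 224 and 336 CPM, which overlap, and 232, 158 and 128 CPM in splenic gate cells against 788, 891 and 791 CPM, which do not. The splenic difference was -2.28 ± 0.09 (adjusted p = 2.41e-14). The vascular one was -0.46 ± 0.14 (adjusted p = 0.0163) and did not pass against T cells of like UMI total (-0.14, adjusted p = 0.842). The vascular level joins unlike members, with 0, 33.9 and 25.5 CPM in gate cells with Eomes and 210.3, 217 and 201 CPM in those without it. In spleen these parts had 104, 83.3 and 58.9 CPM and 369, 251 and 231.5 CPM. Eomes was found in fewer vascular than splenic gate cells, and the part of this in the tissue difference was not tested. Pdlim4, an actin-associated protein gene of the same list, had 11.3, 15.8 and 14.1 CPM in splenic gate cells against 63.5, 73.4 and 68.0 CPM. Of the 19 naive genes, 9 were higher and 3 lower in vascular gate cells, and 5 were higher and 11 lower in splenic ones. The test of whether the contrast between gate cells and other T cells differed between the tissues passed for 581 of 11300 genes (5.14%), 259 toward vascular tissue (2.29%) and 322 toward spleen (2.85%). It passed for 12 of the 19 naive genes, all 12 toward vascular tissue. This test also depends on the level of other T cells in each tissue. Between the gate cells alone, 2 of 18 naive genes tested were higher and 4 lower in vascular tissue. The shares of all genes were 8.87% and 3.72%, and the median was -0.23 (log2) against -0.04 over all genes. With the restricted cells 2 of 17 were higher and 0 lower. Against T cells of like UMI total 51 genes passed this test, with the restricted cells 310, without vascular library 2 316 and without splenic library 3 378, and leaving out any other library gave 446 to 634.

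**Figure D4:**
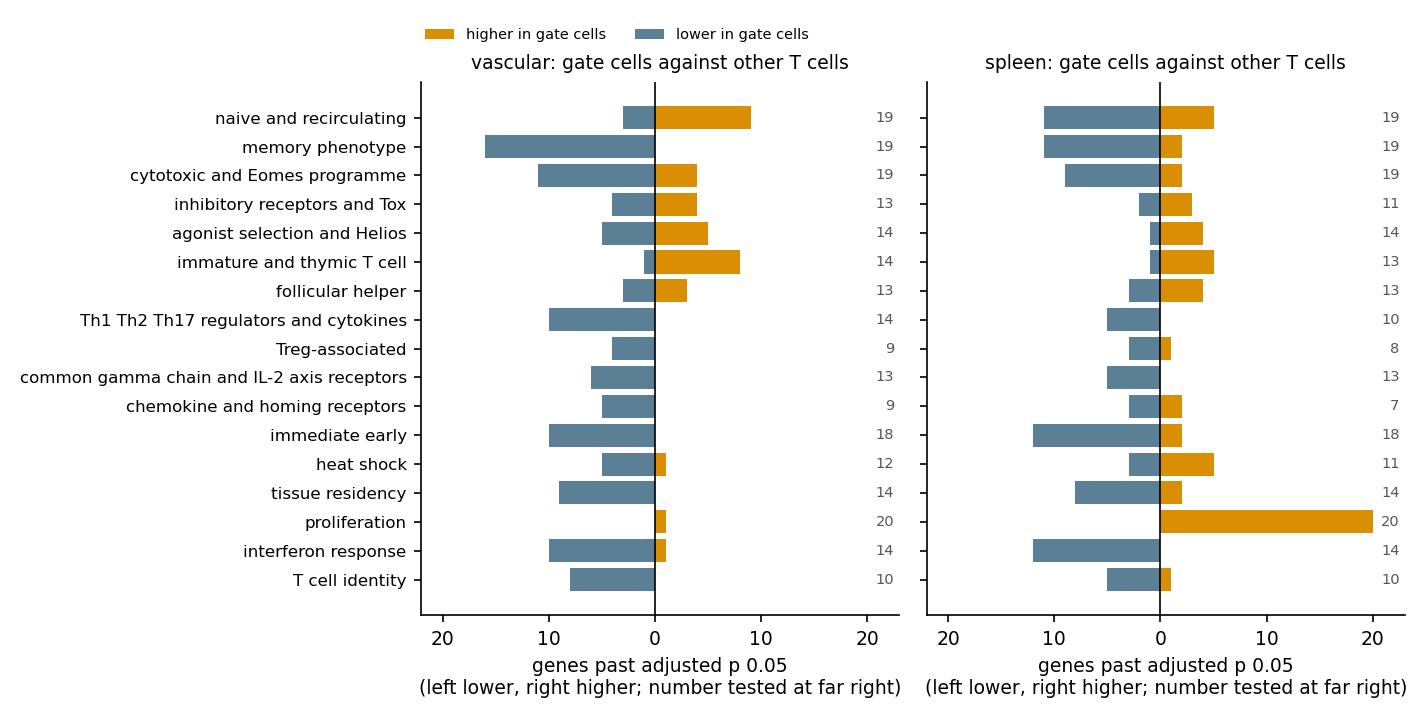
Number of genes higher and lower in gate cells than in other T cells for each gene list (horizontal axis, genes that passed an adjusted p of 0.05, lower ones to the left of 0 and higher ones to the right), vascular left of spleen; the number at the right edge is the genes tested. Memory genes are 0 higher and 16 lower in vascular tissue, and proliferation genes are 20 higher in spleen.

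The remaining lists are read against all genes tested, of which 3.81% were higher and 4.98% lower in vascular gate cells and 9.59% and 9.68% in splenic ones. Interferon response genes were 1 higher and 10 lower of 14 in vascular tissue and 0 higher and 12 lower of 14 in spleen, with Ifit3b, an antiviral gene and close copy of Ifit3, at -2.10 ± 0.33 and -1.05 ± 0.18. Bst2, the 1 that was higher, is also abundant in plasmacytoid dendritic cells. Immediate early genes were 0 higher and 10 lower of 18 in vascular tissue and 2 higher and 12 lower in spleen, where Junb was -0.76 ± 0.04. Tissue residency genes were 0 higher and 9 lower of 14 in vascular tissue and 2 higher and 8 lower in spleen. Receptors and signal genes of the common gamma chain were 0 higher and 6 lower of 13 in vascular tissue and 0 higher and 5 lower in spleen. Chemokine and homing receptors were 0 higher and 5 lower of 9, and 2 higher and 3 lower of 7. Genes associated with regulatory T cells were 0 higher and 4 lower of 9, and 1 higher and 3 lower of 8. Follicular helper and heat shock genes were called in both directions. Follicular helper genes were 3 higher and 3 lower of 13, and 4 higher and 3 lower of 13, with Maf lower in both tissues (-1.35 ± 0.17 and -1.11 ± 0.16). Heat shock genes were 1 higher and 5 lower of 12, and 5 higher and 3 lower of 11. The T cell identity list was 0 higher and 8 lower of 10, and 1 higher and 5 lower of 10. With the restricted cells it was 0 higher and 4 lower of 10, and 2 higher and 4 lower of 10.

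RNA of other cells moved with these differences. At least 3 UMIs of B cell, macrophage or plasmacytoid dendritic markers were found in 24 of 144 vascular gate cells (16.7%), 18 of them plasmacytoid, against 5.62% of other vascular T cells, and in 41 of 482 splenic ones (8.51%) against 4.49%. The 10 plasmacytoid markers summed to 1558, 3812 and 1870 CPM in vascular gate cells against 794, 682 and 517 CPM, and to 416, 408 and 328 CPM in splenic gate cells against 269, 347 and 335 CPM. Siglech, a lectin of these cells, had 206, 531 and 297 CPM against 64.0, 51.6 and 38.8 CPM in vascular tissue. Of these markers 8 of 10 were higher and 0 lower in vascular gate cells and 5 of 9 were higher in splenic ones. With the restricted cells, whose choice used some of the markers, 0 of 7 were higher and 2 lower, and 2 of 5 were higher and 1 lower. The restricted cells are not free of RNA of other cells. Cd74, an MHC class II chaperone, kept 930 UMIs in 15 of the 106 vascular cells, 64.4% of them in 1 cell, and H2-Aa, an MHC class II chain, kept 320 UMIs in 5 cells, 73.1% of them in 1. Cd74 stayed higher there than in other vascular T cells (3.22 ± 0.14) and than in splenic restricted cells (6.19 ± 0.86, adjusted p = 0.000313), with 1656, 2111 and 40.5 CPM against 22.0, 17.9 and 16.05 CPM. In the restricted vascular cells 2 of 6 NK or ILC markers and 1 of 3 dendritic cell markers were higher. The genes with the largest increases by the naming rule in vascular tissue, such as Plbd1, Cfp, Cox6a2 and Ly86, are myeloid or dendritic genes. Cox6a2 was found in 16 of the 144 cells and in 0 of the 106 restricted cells, whose choice used this gene, so the 0 is no check on them. The part of such RNA in the remaining results was not tested beyond the restricted cells.

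Marker lists of further cell types are short, and beside the same shares of all genes several held many calls for their size. B cell markers were 1 higher of 5 in vascular tissue (Cd74, 4035 UMIs in 41 cells) and 1 lower of 5 in spleen, and their summed level was 3836, 4165 and 1603 CPM against 577, 506 and 366 CPM in vascular tissue and 316, 248 and 192 CPM against 210, 375 and 330 CPM in spleen. Dendritic cell markers were 4 higher of 5 in vascular tissue and 0 of 2 in spleen. NK or ILC markers were 2 higher and 2 lower of 6, and 1 higher and 2 lower of 4, and they summed to 909, 1406 and 904 CPM against 331.5, 263 and 227 CPM in vascular tissue and 95.2, 120.0 and 94.6 CPM against 127, 136 and 139.5 CPM in spleen. The 2 that were higher in vascular gate cells were Tyrobp (2.72 ± 0.11) and Fcer1g (2.58 ± 0.14), signalling adaptors that myeloid cells also use. Ncr1, Klra7, Klra8 and Klri2 had no UMI in gate cells, but they were so rare in other T cells that a count of 0 is not informative at this depth. CD8 genes were 2 higher of 2 in vascular tissue and 1 of 2 in spleen, and with the restricted cells neither passed in vascular tissue. Macrophage or monocyte markers were 1 higher and 1 lower of 8, and 0 of 7. Plasma cell markers were 1 higher and 1 lower of 4, and 0 of 3, with Jchain at 3 UMIs in vascular gate cells. NKT markers were 1 higher of 4, and 0 of 2. Stem or progenitor markers were 1 lower of 2, and 1 lower of 1, in each case Ly6a. Erythroid or platelet markers had no gene tested in vascular tissue and were 3 lower of 3 in spleen. Of gamma delta T cell markers 0 of 3 passed in vascular tissue and none was tested in spleen, and 0 of 4 and 0 of 1 stromal markers passed.

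Cycling cells, those with at least 3 UMIs of Mki67, Top2a, Birc5 and Cdk1, were 4 of the vascular gate cells (2.78%) and 29 of the splenic ones (6.02%). All 20 proliferation genes were higher in splenic gate cells, and 1 of 20 was higher in vascular ones. Mki67, a nuclear protein of dividing cells, had 17.9, 10.0 and 4.60 CPM in vascular gate cells against 15.7, 13.4 and 15.7 CPM, and 110, 36.5 and 33.97 CPM in splenic gate cells against 13.1, 10.2 and 7.94 CPM. Its UMIs came from 26 of 482 splenic gate cells, and 1 UMI was left in the restricted cells, whose choice used this gene. Of 15 proliferation genes tested with the restricted cells, 6 were higher in spleen. Histone genes, near-identical copies whose reads can be shared, led the splenic increases by the naming rule, and for Hist1h3h 1 cell held 88.8% of the UMIs.

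A list of leading genes that leaves such cells out was made after seeing the data, with the same rule and a UMI in at least 10% of the gate cells for genes that were higher. In vascular tissue the genes that were higher included Tubb2a, a beta-tubulin, at 283, 436 and 287.5 CPM against 51.8, 70.0 and 64.5 CPM (2.34 ± 0.15). Tubb2a is a close copy of the rule gene Tubb2b, and reads could be assigned to either, so its value is uncertain. Smc4, a condensin subunit, had 208, 478 and 510 CPM against 91.5, 118 and 115 CPM (1.77 ± 0.14). Itm2a, Cd200, Lag3, Ccr7 and Bach2, a repressor that keeps lymphocytes quiescent (1.58 ± 0.33), were also among these 12. In spleen Pou2af1, Tnfrsf9, Itm2a, Il10ra, Ctla2a, Marcksl1, Nr4a2, Cd200 and Mmd, a membrane receptor family gene (135, 162 and 188 CPM against 38.6, 39.1 and 37.9 CPM, 2.04 ± 0.11), were among the 12. The genes that were lower in spleen included Pdlim4, Igfbp4, Il7r, Cxcr3, the costimulatory receptor gene Tnfrsf4 (-1.80 ± 0.21) and the integrin chain gene Itgb1 (-1.64 ± 0.15). In vascular tissue they included Ifng, Cxcr6, Cxcr3 and the growth factor gene Areg (-3.35).

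Vascular gate cells were then set against splenic ones. Of 5218 genes tested, 657 (12.6%) passed an adjusted p of 0.05, 463 higher (8.87%) and 194 lower (3.72%) in vascular gate cells. The restricted cells gave 227 calls. The count was 348 without vascular library 2, 393 without splenic library 2 and 407 without splenic library 3, and leaving out any other library gave 579 to 924. Hspa1a, an inducible chaperone whose reads can be shared with its near-identical neighbour Hspa1b, had 694, 904 and 1145 CPM in vascular gate cells against 0, 1.22 and 2.43 CPM in splenic ones, where 7 UMIs were counted, a log2 difference of 9.05 ± 0.34 (adjusted p = 3.77e-09). Fosl2, an AP-1 family factor, had 167, 142 and 106 CPM against 9.68, 7.31 and 2.91 CPM (4.57 ± 0.31, adjusted p = 1.58e-06), and Crem, a regulator of cAMP responsive genes, had 197, 140 and 120 CPM against 12.9, 9.13 and 9.22 CPM (3.92 ± 0.25, adjusted p = 1.17e-06). None of the 3 overlapped between tissues, and each passed with the restricted cells.

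Other T cells of the same libraries gave tissue values of the same order. Hspa1a had 1817, 1915 and 1811 CPM in other vascular T cells and 7.76, 6.66 and 6.96 CPM in other splenic ones, and vascular gate cells were below other vascular T cells (-1.02 ± 0.09, adjusted p = 2.14e-22). Fosl2 had 237, 153 and 163 CPM in other vascular T cells and 20.6, 12.6 and 7.55 CPM in other splenic ones. The test of whether the tissue difference was unequal between gate cells and other T cells did not pass for Hspa1a (1.00 ± 0.49, adjusted p = 0.318), Fosl2 (0.56 ± 0.30, adjusted p = 0.365) or Crem (-0.20 ± 0.24, adjusted p = 0.787). Digestion and tissue vary together here, and their parts cannot be told apart.

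By list, heat shock genes were 8 higher and 0 lower of 11 in vascular gate cells relative to splenic ones, immediate early genes 14 and 0 of 17, tissue residency genes 11 and 0 of 12, and memory genes 11 and 0 of 18. With the restricted cells they were 9 and 0 of 11, 8 and 0 of 16, 8 and 0 of 11, and 3 and 0 of 13. Of all 3806 genes tested with the restricted cells, 185 were higher and 42 lower. Rora, a nuclear receptor of tissue lymphocytes, had 114, 64.2 and 34.5 CPM in vascular gate cells against 12.9, 5.48 and 8.74 CPM in splenic ones (3.04 ± 0.41). Among genes that were lower, Dgkz, a kinase that dampens receptor signalling, had 29.9, 24.1 and 27.6 CPM against 67.8, 73.7 and 63.6 CPM (-1.34 ± 0.22, adjusted p = 0.00113), and Cd200 was also lower (-1.13 ± 0.23, adjusted p = 0.00613). Pou2af1 was lower in vascular gate cells (-1.52 ± 0.27, adjusted p = 0.00226), and this call was lost with the restricted cells (-0.97, adjusted p = 0.0855). All 7 plasmacytoid markers tested were higher in vascular gate cells, and with the restricted cells 1 such marker was tested and did not pass. Of 20 proliferation genes 11 were lower, whereas with the restricted cells 1 of 7 proliferation genes tested was higher and 1 lower.

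**Figure D5:**
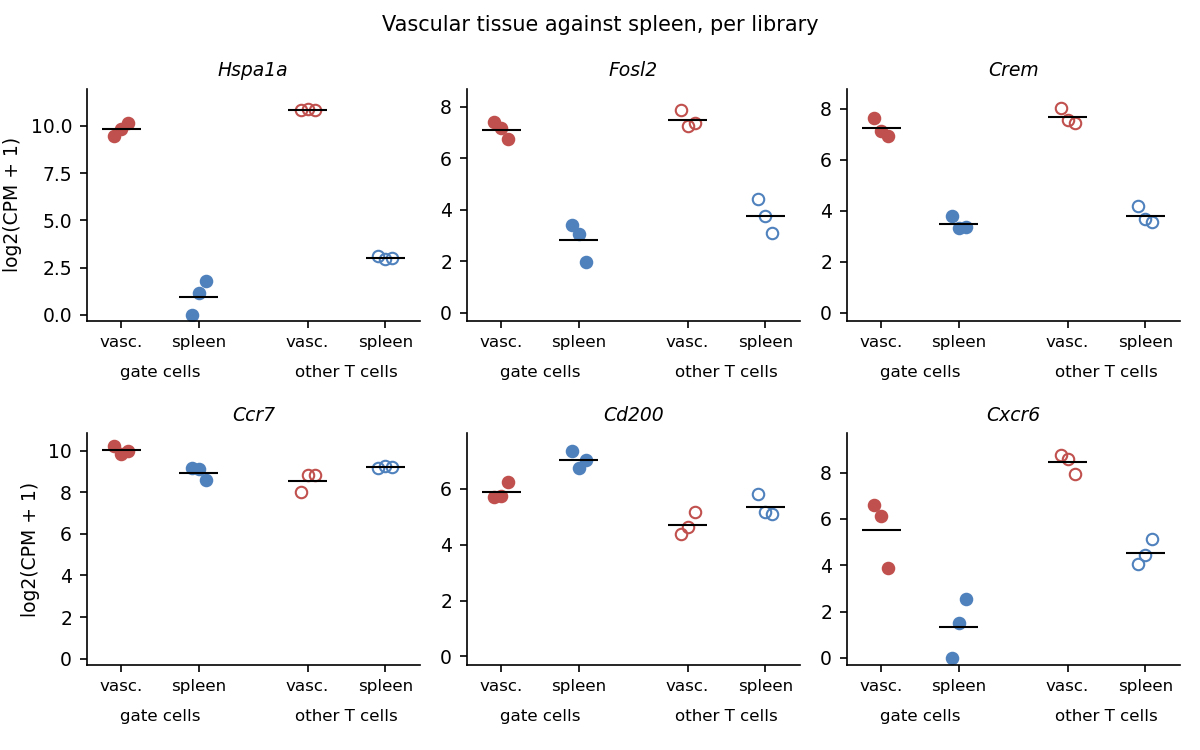
Level of selected genes (vertical axis, log2 of CPM plus 1) in vascular gate cells left of splenic gate cells, with other T cells of both tissues beside them; points are libraries and horizontal lines their mean. Hspa1a, Fosl2 and Crem are higher in vascular tissue in gate cells and in other T cells alike.

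Since gate cells are deep, the share of cells with a UMI was compared for 20 T cell genes with each cell thinned to 2000 UMIs. Tox was found in 18.2%, 21.2% and 23.7% of vascular gate cells against 10.2%, 11.2% and 12.3% of other vascular T cells, and in 27.4%, 25.7% and 24.5% of splenic ones against 13.1%, 13.5% and 13.6%. Before thinning it was found in 50.9% against 23.9% in vascular tissue and 55.8% against 29.1% in spleen, and at 2000 UMIs in 1.52% of splenic cells with B cell markers. Tox, Ikzf2, Lag3 and Cd24a were higher in 6 of 6 libraries, and Cxcr3, Ccl5, Ctsw and Cd4 were lower in 6 of 6. Ikzf2 was found in 9.43% against 5.75% in vascular tissue and 8.26% against 4.73% in spleen. Cd4 was found in 26.8% against 35.8% and in 16.7% against 28.1%. Each of the 8 genes had an exact sign permutation p of 0.031, the smallest that 6 libraries allow, and an adjusted p of 0.0781 over the 20 genes. None therefore passed 0.05 after adjustment.

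Gate cells differed among themselves with the number of genes detected. These are descriptions, since the number is part of the rule. Itm2a had 279 CPM in vascular gate cells with 3 or more of the genes, 133 CPM in those with exactly 2, 60.7 CPM in cells with 1 and 30.4 CPM in cells with none. In spleen the values were 383, 239, 100 and 53.4 CPM. Pou2af1 followed the same order in spleen with 102, 29.5, 13.2 and 5.54 CPM, and Cd24a with 107, 19.5, 9.78 and 4.57 CPM. Il7r ran the other way, with 28.2, 105, 236 and 346 CPM in spleen and 52.8, 281, 346 and 502 CPM in vascular tissue. Igfbp4 had 83.4, 208, 587 and 791 CPM in spleen. In vascular tissue it had 15.1 CPM with 3 or more of the genes, 207 CPM with 2, 289 CPM with 1 and 212 CPM with none. Cells with more of the genes were also deeper, with median UMI counts of 9080 and 6940 for 3 or more and exactly 2 in vascular tissue and 7226 and 6375 in spleen.

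Gate cells also differed with the presence of Eomes, a gene of the rule, so these values are descriptions without a test. Igfbp4 had 0, 33.9 and 25.5 CPM in vascular gate cells with Eomes (40 cells) against 210.3, 217 and 201 CPM in those without it (104 cells), and 104, 83.3 and 58.9 CPM in splenic gate cells with Eomes (230 cells) against 369, 251 and 231.5 CPM in those without it (252 cells). It was lower with Eomes in all 6 libraries, also among the restricted cells. Tnfrsf9 had 78.6, 169.6 and 51.0 CPM with Eomes in vascular tissue, on 4, 15 and 8 UMIs, against 18.45, 30.7 and 31.55 CPM without it. It had 57.7, 218 and 188 CPM with Eomes against 34.7, 62.8 and 34.5 CPM without it in spleen, and among the restricted cells 71.5, 295 and 184 CPM against 45.7, 66.3 and 43.6 CPM. Itm2a had 98.3, 396 and 268 CPM against 81.2, 99.8 and 225 CPM in vascular tissue, and 381, 383.5 and 364 CPM against 202, 229.7 and 172 CPM in spleen. Among the restricted cells of vascular library 1, where 5 cells had Eomes, Itm2a was lower with it (98.3 against 132 CPM). Vim, an intermediate filament gene of activated cells, was carried by few splenic cells, since 5 of the 482 held 34.7% of its UMIs. It had 338.5, 136 and 219 CPM with Eomes against 315, 676 and 526 CPM without it in spleen, which puts library 1 apart, and 149, 35.9 and 91.3 CPM against 195, 220 and 261.5 CPM among the restricted cells. Siglech had 0, 0 and 57.4 CPM in vascular gate cells with Eomes and 255, 678 and 473 CPM in those without it. The 14 vascular cells that met the rule through Sox4 and Tubb2b alone had 1169 CPM of Siglech, and their median was 12440 UMIs.

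Cells with 2 or more of the 5 genes were also found among the T cells that the rule bars. They numbered 53 in vascular tissue and 74 in spleen, of which 34 and 42 had a UMI of Gzmk and 18 and 23 of Foxp3. In the cells barred for Gzmk, Itm2a had 40.6 CPM in vascular tissue and 73.8 CPM in spleen, below the 165 and 291 CPM of the gate cells. Pou2af1 had 5.79 CPM in the barred vascular cells and 50.7 CPM in the splenic ones, where the gate cells had 55.6 CPM. These cells are few, and no test was made.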

How the data were processed

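The deposited matrices hold whole-number UMI counts per gene and barcode for 27998 genes, per the file headers, with no normalization. Per the submitters' processing notes, FastQC 0.11.8, Cell Ranger 2.2.0, STAR 2.5.1b and Seurat were used with build mm10, and no version of Seurat is given there. The 5' library kit is named in the labels' protocols. Genes for most receptor and immunoglobulin constant regions were not found in the gene list by symbol.

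UMI counts were summed per library over gate cells and over other T cells and tested with edgeR 4.0.16 (quasi-likelihood, TMM scaling, filterByExpr, R 4.3.3), with the library as a block within a tissue and no block between tissues. The 10 genes of the rule were described and not tested. P-values were adjusted by Benjamini-Hochberg over all genes tested. DESeq2 1.42.0 was an alternative. All tests were two-sided. The edgeR steps were tested on simulated data. Levels are CPM of the summed UMIs. Doublets were called per library by neighbourhood with simulated doublets, 0.8% per 1000 barcodes, and were kept unless stated. Neighbours were found in 30 components of 2000 variable genes (scikit-learn 1.9.0).

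Leading genes were the 12 with the largest positive and the 12 with the largest negative log2 difference among those with an adjusted p under 0.05, a mean of at least 50 CPM in the higher group and 1 direction in every library, together with the largest called members of each list and the 20 genes compared at equal depth. The added rule is given beside its result, and a few genes, such as Bach2, Il10ra and Mmd, were named from it. The members, lists and tests were chosen with earlier results of these data known. Libraries with equal replicate numbers did not deviate together (correlations of -0.023, 0.00467 and 0.00521 over 5224 genes), so the numbers were not used as pairs. Replicates differed by more than sampling noise. Alternatives changed the comparison cells, scaling, tool, filters, the rule, doublets, cycling cells, depth and single libraries. Binomial intervals and limits from counts of 0 cover counting error only.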

Additional observations from a re-analysis of the deposited data

Results flagged for a closer look

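Among the leading genes, 25 had a contrast between gate cells and other T cells that differed between vascular tissue and spleen in the test of that difference itself (edgeR, adjusted p under 0.05). Values are log2, vascular minus spleen. Among surface receptors and signal genes of T cells, Tnfrsf9 had -2.51, Cd226 -1.87, Cd40lg -0.606, Il7r 0.961 and Igfbp4 1.76. With the restricted cells Tnfrsf9 had -2.11, Igfbp4 2.57 and Il7r 1.01, each past the threshold, and Cd40lg had -0.67 and did not pass (adjusted p = 0.0964). Tnfrsf9 and Igfbp4 also differed with the presence of Eomes, found in 27.8% of vascular and 47.7% of splenic gate cells. The part of this in their values was not tested.

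Genes of dendritic, myeloid and B cells leaned toward vascular tissue. Plbd1 had 5.96, H2-DMb2 4.54, Cfp 3.55, Tifa 3.06, H2-DMb1 2.83, Ly86 2.83, Alox5ap 2.31, Blnk 2.21, Mef2c 2.21, Cox6a2 1.42 and Ccr9 1.05. With the restricted cells Plbd1 had 12.1, Ly86 9.96, Alox5ap 6.12, H2-DMb2 4.79, Cfp 4.37 and H2-DMb1 3.75, each past the threshold, and fitted values of genes with so few UMIs are no bounds. Mef2c, Tifa and Ccr9 did not pass there (adjusted p = 0.532, 0.238 and 0.732), and Ccr9 had -1.29. Blnk and Cox6a2 were not tested there. Vascular gate cells also had more RNA of plasmacytoid markers, and the restricted cells still held RNA of other cells, whose part in these values was not tested.

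Cell cycle genes leaned toward spleen. Ube2c had -2.92, Mki67 -2.90, Hist1h2ai -2.57, Hist1h1d -2.22 and 2810417H13Rik -1.82. None of the 5 passed with the restricted cells (adjusted p = 0.666 to 0.907), where Hist1h2ai had 1.17 and Mki67 1.24. Cycling cells were left out there by a definition that uses Mki67 itself.

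The other 4 genes also leaned toward spleen. Jchain had -6.06, on 3 UMIs in vascular gate cells and 368 in splenic ones, of which 1 cell held 358 (97.3%), and with the restricted cells it had 0.98 (adjusted p = 0.864). Serpinb9 had -2.59, Furin -2.05 and Ttc39c -1.75. With the restricted cells Serpinb9 (-2.24) and Furin (-2.12) passed, and Ttc39c did not (-1.92, adjusted p = 0.580).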

How the results depend on the processing

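The share of gate cells was lower in vascular tissue than in spleen under every alternative tried, without overlap, and p stayed at 0.1, with differences from -0.302 percentage points at 1000 UMIs per cell to -6.73 with a single gate gene required. Leaving out 1 library gave -2.13 to -1.63. The replicate block gave an exact p of 0.25, the smallest possible with 3 pairs. Whether same-numbered libraries share animals is not stated in the labels.

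Counts of calls moved more. In spleen, 1995 genes became 1113 with DESeq2, 772 against T cells of like UMI total, 1271 with the restricted cells and 999 with no replicate block, and leaving out 1 library gave 899 to 2355. In vascular tissue, 974 became 503 with DESeq2, 188 against T cells of like UMI total, 383 with at least 3 gate genes, 322 with Eomes required, 545 without cells carrying RNA of other lineages, 619 with the restricted cells and 443 with no replicate block, and leaving out 1 library gave 552 to 667. Between the tissues, 657 became 430 with DESeq2, 1194 with no filter, 124 with at least 3 gate genes, 60 with Eomes required, 283 without doublets, 296 without cells carrying RNA of other lineages, 227 with the restricted cells and 603 with the replicate block, and leaving out 1 library gave 348 to 924. For the difference of the contrasts, 581 became 297 with DESeq2, 311 with at least 3 gate genes, 182 with Eomes required, 51 against T cells of like UMI total and 310 with the restricted cells, and leaving out 1 library gave 316 to 634. Fewer cells enter most of these alternatives. DESeq2 called 630 higher and 483 lower in spleen and 307 and 196 in vascular tissue.

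A few single genes turned round. Without cycling cells Hist1h2ai had -0.0402, Hist1h3i -2.34 and Mki67 -1.58 in spleen. Mki67 is a gene that defines cycling cells, so that filter acted on its own UMIs and its change tells nothing. With the restricted cells Hist1h2ai had -0.14 and Hist1h3i -1.87 in spleen. Against T cells of like UMI total Ube2c had -0.0392 there. With Eomes required, Alox5ap had -0.26, Ccr9 -0.97, Cfp -8.74, Cox6a2 -2.71, Ly86 -0.71, Plbd1 -0.16 and Smim5 -9.46 in vascular tissue. Where no count remains such values are no bounds, and the causes were not tested. Over 124 gene results, 1709 alternatives kept direction and call, 165 lost the call, 3 gained it and 13 turned round. For the 20 genes compared at equal depth, leaving out 1 library cannot give a p under 0.0625, so those alternatives say nothing about stability, and none passed under the other 4, whose smallest possible p of 0.031 passes after adjustment only if enough genes reach it.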
